A study of Rattus norvegicus with 9 samples.

Results

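The mRNA levels of Adgrb1 and Mapre3 are described here in 9 male rats of the inbred Lewis strain, whose prefrontal cortex was read on 1 Affymetrix expression array each. They are 2 of the 10411 genes to which the array annotation gives a probe set of their own. Every probe set whose only annotated symbol was Adgrb1 or Mapre3 was taken, which gave 1 probe set for each gene (1376504_at for Adgrb1 and 1374062_x_at for Mapre3) among 15866. The pair was selected on its log2 levels against the startle value in these same arrays, so that relation is described without a test.

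The rats were untreated and make up a single group. They weighed 200 to 250 g, were housed singly, and were 9 of the 20 rats that went through behavioural testing in the experiment. The tissue was frontal cortex free of olfactory bulb, taken 12 days after the last test. The labels give each rat 4 behavioural values without units, for sugar feeding, plus maze, locomotion and startle (the protocol describes no plus maze test), and the study's title asks how brain mRNA levels go with behaviour among animals of 1 strain.

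Adgrb1, once named Bai1, encodes an adhesion G protein-coupled receptor that is abundant in brain. Its long extracellular part carries thrombospondin repeats and can bind phosphatidylserine on dying cells, and its intracellular part can engage Elmo and Dock1 proteins to activate the GTPase Rac1. In rodent neurons it sits at excitatory postsynapses, where it has been tied to spine growth and to the stability of the scaffold PSD-95. Mapre3 encodes EB3, the end-binding protein most typical of neurons, which rides on growing microtubule plus ends and recruits other plus-end proteins. EB3-bearing microtubules are known to enter dendritic spines of cultured rodent neurons.

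The promoter windows of Mapre3 and of its relative Mapre1 are shown because the levels of the 2 family members are compared further on. Of the 2 chosen genes, 1 (Mapre3) was matched in the RefSeq promoter table of build GRCr8, whose windows run from 250 bases before to 50 bases after a gene's start. Capitals mark every match on either strand to CCAAT (the CCAAT box), TATAAA (the TATA box), GGGCGG (the GC box), TGACG (the core of the cyclic AMP response element) and CACGTG (an E-box), and adjoining or overlapping matches run together.
Mapre3, chr6:31244854-31245153, minus strand: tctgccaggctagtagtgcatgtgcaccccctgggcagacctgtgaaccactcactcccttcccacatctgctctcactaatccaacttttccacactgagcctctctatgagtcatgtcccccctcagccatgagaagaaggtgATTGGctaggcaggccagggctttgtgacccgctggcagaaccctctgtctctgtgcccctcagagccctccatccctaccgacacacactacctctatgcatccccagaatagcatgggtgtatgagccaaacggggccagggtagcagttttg
Mapre1, chr3:162678820-162679119, plus strand: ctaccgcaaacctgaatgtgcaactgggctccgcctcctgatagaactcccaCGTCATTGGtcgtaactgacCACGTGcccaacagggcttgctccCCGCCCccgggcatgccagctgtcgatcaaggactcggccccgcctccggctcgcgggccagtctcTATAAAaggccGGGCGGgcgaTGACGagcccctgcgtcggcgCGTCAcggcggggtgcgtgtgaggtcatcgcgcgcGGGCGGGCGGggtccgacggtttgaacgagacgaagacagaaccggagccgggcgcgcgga

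The Mapre3 window held 1 CCAAT box, on the opposite strand, and no match to the other 4 motifs. The Mapre1 window held 1 CCAAT box, 1 TATA box, 4 GC boxes, 3 matches to TGACG and 1 E-box. Over the 33469 windows of 300 bases in the table, 37.5% held CCAAT, 14.2% TATAAA, 33.1% GGGCGG, 21.2% TGACG and 6.42% CACGTG on either strand. The windows also differed in base makeup, with 3 CG dinucleotides and 56.3% G or C for Mapre3 and 39 CG dinucleotides and 68.0% G or C for Mapre1. The median window held 7 CG dinucleotides. The Mapre3 window lies inside the annotated span of its gene, and which start the cortex uses was not measured. A match describes letters in a window, and its absence says nothing about the factors that act there.

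Both genes gave a bright signal. Adgrb1 averaged 9.27 ± 0.38 log2 units (SD, n = 9), above 90.9% of all probe sets, and Mapre3 averaged 9.14 ± 0.31 (SD, n = 9), above 90.2%. Among the 950 tested probe sets within 0.5 log2 units of Adgrb1, 92.0% varied less between rats than Adgrb1 did, and for Mapre3 this share was 85.0% of 1016. Affymetrix gives the suffix _x_at to sets that can hold probes shared with other transcripts, so part of the Mapre3 signal may come from elsewhere, which was not tested.

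In order of startle, from the lowest to the highest, Adgrb1 stood at 9.71 (rat 8), 9.68 (rat 7), 9.52 (rat 5), 9.60 (rat 9), 9.31 (rat 4), 9.01 (rat 2), 9.00 (rat 6), 8.81 (rat 1) and 8.77 (rat 3) log2 units. A single pair of neighbours, rats 5 and 9, broke the descending order. The span between rats 8 and 3 was 0.94 log2 units, or 1.91-fold. Rats left the straight line through startle by 0.12 log2 units (SD), with rat 2 farthest below it, at -0.21, and rat 9 farthest above it, at 0.22. When the rats are ordered by Adgrb1 itself, the steps wider than that SD lay between rats 5 and 4, rats 4 and 2, and rats 6 and 1. The other neighbours in this order differed by less.

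Mapre3 stood at 9.46 (rat 8), 9.53 (rat 7), 9.30 (rat 5), 9.28 (rat 9), 9.13 (rat 4), 9.17 (rat 2), 9.08 (rat 6), 8.65 (rat 1) and 8.66 (rat 3) log2 units in the same order. Neighbours changed places at 3 points, and rats 1 and 3, which had the highest startle values, lay well below the rest. The span between rats 7 and 1 was 0.88 log2 units, or 1.84-fold. The SD around the straight line was 0.093, with rat 8 farthest below it, at -0.11, and rat 7 farthest above it, at 0.14. Ordered by Mapre3, the steps wider than that SD lay between rats 8 and 5, rats 9 and 2, and rats 6 and 3.

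Expressed per 100 units of the startle value, the straight line dropped by 0.25 log2 units for Adgrb1 and by 0.21 for Mapre3. Per SD of startle the limma slopes were -0.36 ± 0.048 and -0.30 ± 0.039 (SE, n = 9). Without rats 1 and 3, the pair farthest from the median of startle, the slope of Mapre3 was -0.22 and that of Adgrb1 -0.41. These values chose the genes, so they carry no p. The labels' startle values themselves ran from 67.7 in rat 8 to 501 in rat 3.

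**Figure D1:**
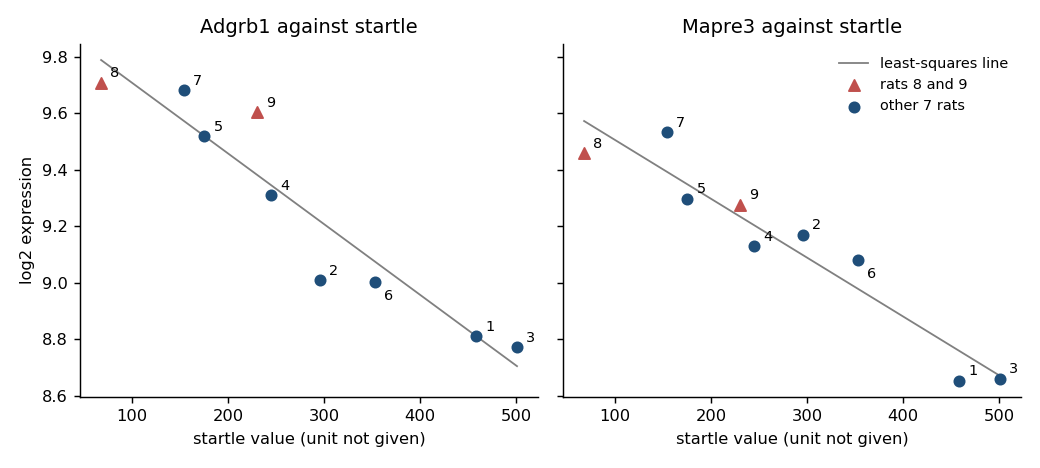
Log2 expression of Adgrb1 (left) and Mapre3 (right) against the startle value of each rat, with rat numbers, the least-squares line in grey and rats 8 and 9 as red triangles. Adgrb1 spans 8.77 to 9.71 and Mapre3 8.65 to 9.53, and rats 1 and 3 hold the lowest levels of both.

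Rats 8 and 9 were set off from the other 7 on the first principal component of all tested probe sets, with scores of 35.6 and 30.2 against -12.1 to -1.62. This component held 49.6% of the variance. Adgrb1 stood at 9.71 and 9.60 in this pair, against 8.77 to 9.68 in the other 7 rats, and Mapre3 at 9.46 and 9.28, against 8.65 to 9.53. Both genes therefore overlapped between the pair and the rest. The mean of the pair was 0.50 log2 units above that of the other 7 rats for Adgrb1 and 0.29 for Mapre3, and rat 8 also had the lowest startle value. Within the other 7 rats the startle slopes were -0.36 for Adgrb1 and -0.33 for Mapre3. The labels name no batch.

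The 3 other behaviours played no part in the choice of the genes and could be tested. Neither gene followed any of them at the threshold. In limma 0 of the 6 relations passed an adjusted p of 0.05 and 0 had an unadjusted p under 0.05. Over all 9520 tested probe sets the share called at the adjusted threshold was 0% for each of these measures, and at the unadjusted one it was 1.96% (locomotion), 2.99% (plus maze) and 1.4% (sugar feeding). Over probe sets the startle slope had 13.2% at the unadjusted threshold and 0% at the adjusted one. With 9 rats the intervals are wide, and a missing call does not show that a level is unrelated.

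For Adgrb1 the plus maze gave the slope farthest from 0. It was -0.16 ± 0.11 log2 units per SD (SE, n = 9), with a 95% interval of -0.42 to 0.095 and a limma adjusted p of 0.999. The correlation was -0.437 (exact permutation p = 0.253, adjusted p = 0.996 over the 6 relations) and rho was -0.210 (exact permutation p = 0.584, adjusted p = 0.972). Rats 2 and 6, which share the highest plus maze value of 18.7, had Adgrb1 levels of 9.01 and 9.00, but rats 1 and 3 lay lower still with plus maze values of 9 and 0. Without rats 2 and 6, r was -0.204.

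Adgrb1 had a slope of 0.0076 ± 0.13 on locomotion (SE, n = 9), with a 95% interval of -0.28 to 0.30, r = 0.0201 (exact permutation p = 0.958, adjusted p = 0.996), with a rho of 0.283 (exact permutation p = 0.463, adjusted p = 0.972). Its slope on sugar feeding was 0.062 ± 0.13 (SE, n = 9), with an interval of -0.22 to 0.35, r = 0.165 (exact permutation p = 0.689, adjusted p = 0.996), with a rho of 0.10 (exact permutation p = 0.810, adjusted p = 0.972). The low Adgrb1 levels of rats 1 and 3 sat at the opposite ends of locomotion, 1102 and 536. The limma adjusted p was 1.00 for both measures. Without the 2 rats farthest from the median, r was 0.289 for locomotion and -0.214 for sugar feeding.

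Mapre3 lay as close to 0. Its slopes were -0.033 ± 0.11 on locomotion, -0.031 ± 0.11 on plus maze and -0.00059 ± 0.11 on sugar feeding (SE, n = 9). The intervals ran from -0.27 to 0.21, from -0.27 to 0.21 and from -0.24 to 0.24, with limma adjusted p of 0.999 or more. Its r was -0.105 with locomotion (exact permutation p = 0.791), -0.10 with the plus maze (exact permutation p = 0.819) and -0.0019 with sugar feeding (exact permutation p = 0.996). The adjusted p was 0.996 each time. The rho values were 0.00 with locomotion (exact permutation p = 1.00, adjusted p = 1.00), -0.252 with the plus maze (exact permutation p = 0.509, adjusted p = 0.972) and -0.167 with sugar feeding (exact permutation p = 0.678, adjusted p = 0.972). Without the 2 farthest rats of each measure, r was 0.143, -0.199 and -0.476. Within the 7 rats without rats 8 and 9, r came to -0.328 with locomotion, -0.0070 with the plus maze and -0.172 with sugar feeding. The corresponding values of Adgrb1 were -0.245, -0.368 and -0.0014.

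**Figure D2:**
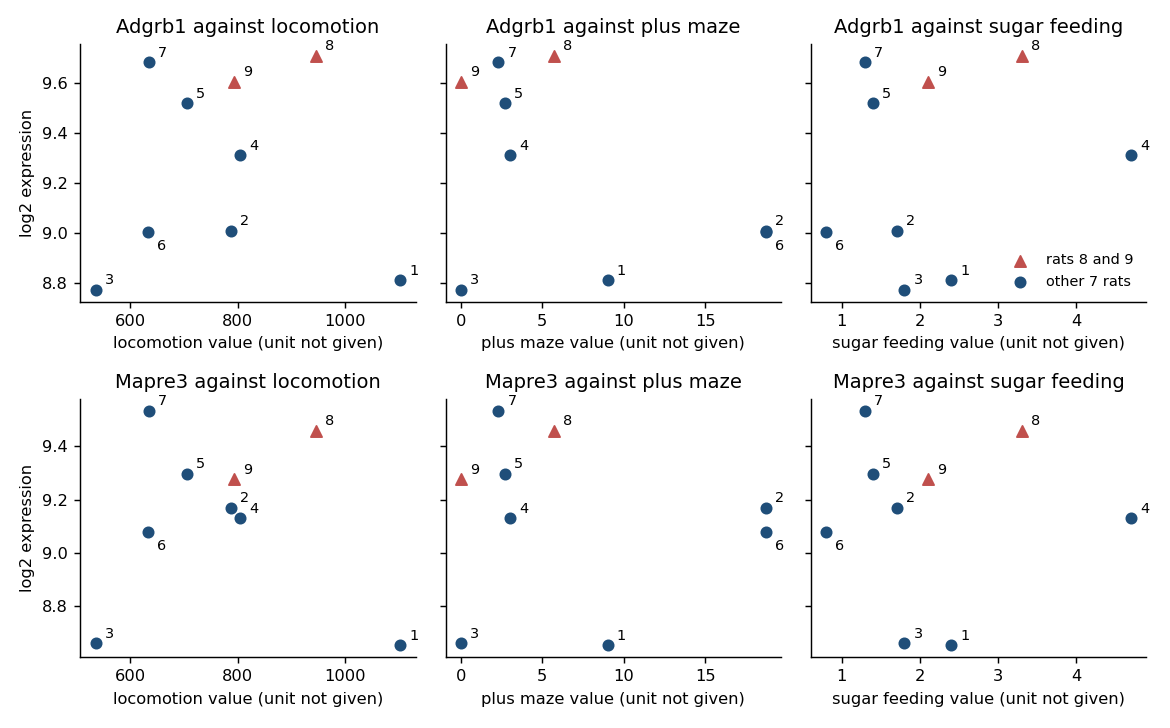
Log2 expression of Adgrb1 (top) and Mapre3 (bottom) against the locomotion, plus maze and sugar feeding value of each rat, with rat numbers and rats 8 and 9 as red triangles. No relation passed the test, and r lies between -0.437 and 0.165 over the 6 panels.

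Several properties of the samples moved with the 2 genes. The markers of excitatory neurons came closest. Of the 12 genes on that list 5 were measured, and their summed level ran from 43.8 in rat 1 to 47.3 in rat 7. Slc17a7, the vesicular glutamate transporter of cortical neurons, had r = 0.853 with Adgrb1 and 0.802 with Mapre3. Cux2, a transcription factor of upper layer neurons, had 0.800 and 0.848. The other 3 followed less closely. Camk2a, a kinase of excitatory synapses, had 0.589 and 0.498, Nrgn, a calmodulin-binding protein of dendrites, 0.314 and 0.415, and Neurod2, a transcription factor, 0.294 and 0.116. Neurod2 was dim, at a mean of 4.12 log2 units, and was highest in rat 9, at 4.81. These r compare genes on the same 9 arrays and are given as a description.

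The mean z score of the 5 markers had r = -0.832 with startle (exact permutation p = 0.00643, adjusted p = 0.0837 over 13 such properties), with a rho of -0.867 (exact permutation p = 0.00451, adjusted p = 0.0586). Without rats 1 and 3 its r with startle was -0.683, and within the 7 rats without rats 8 and 9 it was -0.845. The score had r = 0.931 with Adgrb1 and 0.875 with Mapre3. With the score as a covariate, which was chosen after seeing the data, the startle slope was -0.21 ± 0.066 for Adgrb1 and -0.23 ± 0.069 for Mapre3 (SE, n = 9). In bulk tissue fewer cells of a type and less RNA per cell cannot be told apart.

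Markers shared by all neurons were the next list. The score of 11 of 12 such genes had r = -0.393 with startle (exact permutation p = 0.30, adjusted p = 0.547), with a rho of -0.15 (exact permutation p = 0.708, adjusted p = 0.912), and with that score as a covariate the startle slopes were -0.37 for Adgrb1 and -0.30 for Mapre3. Within the 7 rats without rats 8 and 9 this score had r = -0.710 with startle (exact permutation p = 0.054, adjusted p = 0.111), 0.618 with Adgrb1 and 0.542 with Mapre3. No fit with this score as a covariate was made within those 7 rats. Microglial markers, 7 of 14 measured, had r = 0.699 with startle (exact permutation p = 0.0348, adjusted p = 0.226), with a rho of 0.650 (exact permutation p = 0.0666, adjusted p = 0.433). Their summed level ran from 40.6 to 45.5, and their r was -0.771 with Adgrb1 and -0.645 with Mapre3. Endothelial markers, 7 of 12 measured, had r = 0.600 with startle (exact permutation p = 0.0848, adjusted p = 0.367), with a rho of 0.533 (exact permutation p = 0.148, adjusted p = 0.580). Their summed level ran from 41.2 to 44.7, and their r was -0.651 with Adgrb1 and -0.577 with Mapre3. Within the 7 rats without rats 8 and 9, the microglial score had r = 0.719 with startle (exact permutation p = 0.0661, adjusted p = 0.111). There the endothelial score had r = 0.766 with startle (exact permutation p = 0.0353, adjusted p = 0.111). The part of microglial and endothelial markers in the result was not tested. The other scores had r with startle of -0.0557 for interneurons (10 of 12 markers measured), 0.476 for astrocytes (10 of 12), -0.198 for oligodendrocytes (7 of 12) and -0.00753 for meninges (9 of 11), each with an adjusted exact permutation p of 0.425 or more. Within the 7 rats these were -0.667, 0.704, 0.049 and 0.171, with an adjusted exact permutation p of 0.111 or more.

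RNA quality was read from control probe sets at the 3' and 5' ends of the same transcript. For GAPDH the 3' signal exceeded the 5' signal by 0.45 to 0.83 log2 units in the 7 rats without rats 8 and 9, where this difference had r = -0.816 with startle (exact permutation p = 0.0222, adjusted p = 0.111 over the 13 properties), 0.850 with Adgrb1 and 0.786 with Mapre3. Over all 9 rats its r with startle was -0.361 (exact permutation p = 0.337, adjusted p = 0.547), with a rho of -0.467 (exact permutation p = 0.213, adjusted p = 0.580). Rat 8, with the lowest startle value, had a difference of 0.46. With the GAPDH difference as a covariate over all 9 rats the startle slopes were -0.33 for Adgrb1 and -0.28 for Mapre3. No such fit was made within the 7 rats, where the relation with startle was closer, so the part of RNA quality there was not tested. The median of each array, over all probe sets, had r = 0.526 with startle over the 9 rats (exact permutation p = 0.146, adjusted p = 0.379). Within the 7 rats it had 0.804 with startle (exact permutation p = 0.0302, adjusted p = 0.111), -0.675 with Adgrb1 and -0.755 with Mapre3. The hexokinase control separated rats 8 and 9, at 2.02 and 1.14, from the other 7, at 2.41 to 2.91.

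**Figure D3:**
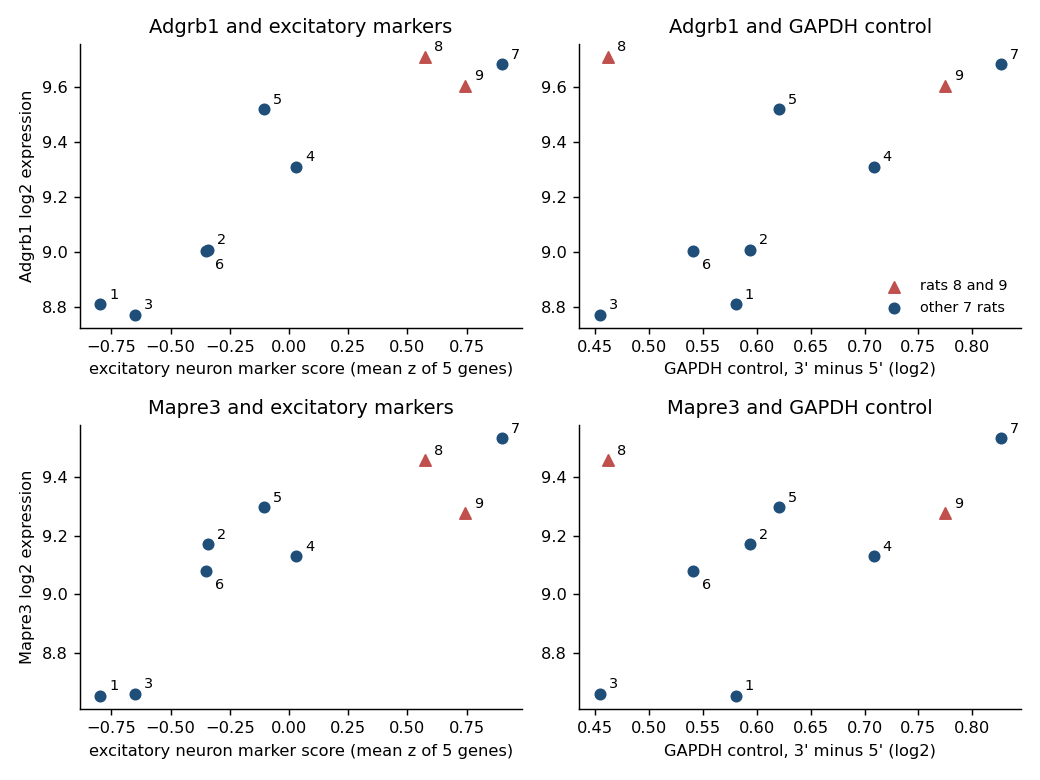
Log2 expression of Adgrb1 (top) and Mapre3 (bottom) against the excitatory neuron marker score (left, mean z score of 5 genes) and against the 3' minus 5' log2 difference of the GAPDH control probe sets (right), with rats 8 and 9 as red triangles. Both genes follow the score, with r of 0.931 and 0.875, while on the right rat 8 lies away from the other rats.

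The other end-binding genes, Mapre1 and Mapre2, had negative startle slopes over the 9 rats. At the adjusted threshold 0% of all probe sets were called, so the lack of a call sets neither gene apart. Mapre2, whose product also binds microtubule ends, ranged from 7.61 through a median of 7.88 to 8.27 log2 units and had a startle slope of -0.054 ± 0.067 (SE, n = 9; limma adjusted p = 0.725). Mapre1, which encodes EB1, the ubiquitous family member, was read by 3 probe sets with startle slopes of -0.12, -0.26 and -0.31 (limma adjusted p = 0.729, 0.455 and 0.428). Mapre1 probe sets had r of 0.258 to 0.603 with Adgrb1 and 0.162 to 0.458 with Mapre3.

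The Mapre1 slopes depended on rats 8 and 9. The set 1375525_at stood at 7.46 and 7.48 in that pair, against 5.97 to 6.27 in the other 7 rats, and 1370792_at at 6.95 and 6.87, against 5.64 to 6.21. The set 1373397_at stood at 8.60 and 8.62, against 6.93 to 8.18. All 3 Mapre1 sets had both rats above the rest, while Mapre3 did not. How many of all probe sets set this pair apart was not counted, so no contrast between the genes is drawn from it. Without the pair the Mapre1 slopes were 0.14 for 1370792_at, -0.11 for 1373397_at and -0.030 for 1375525_at, so the first changed sign. Mapre2 then had -0.017. The set 1373397_at had an unadjusted limma p of 0.0287 for locomotion, with a slope of 0.34 and an adjusted p of 1.00.

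Genes that work with Adgrb1 gave a mixed picture. Of 29 listed ligands, partners and signalling genes 17 were measured, and 2 had a negative and 1 a positive startle slope at an unadjusted limma p under 0.05, while 0 passed the adjusted threshold. Over all 6793 genes, with 1 probe set each, 4.64% were called negative and 7.79% positive at the unadjusted threshold, and 0% of probe sets passed the adjusted one. The median slope was -0.032 for the list and 0.021 for all genes. The 3 were Arrb2, a beta-arrestin that binds activated receptors, at -0.21 ± 0.062, Magi3, a membrane scaffold, at 0.28 ± 0.12, and Magi1, its relative, at -0.17 ± 0.076 (SE, n = 9, limma adjusted p of 0.359 to 0.374). Magi1 was dim, at a mean of 3.94 log2 units. Without rats 8 and 9 Arrb2 had -0.21, Magi3 0.057 and Magi1 -0.10. The list then held 1 negative and 0 positive calls, where 5.77% of all genes were called negative and 6.79% positive.

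Some partners on this list have a known place in the pathway. Rac1 had a startle slope of 0.014 ± 0.039 and Elmo2, which links the receptor to Dock1, 0.016 ± 0.043 (SE, n = 9). Dlg4, which encodes PSD-95, had -0.12 ± 0.090, and Mdm2, the ubiquitin ligase that acts on PSD-95, -0.032 ± 0.033. Among other adhesion receptors 9 of 15 were measured, 7 with a negative slope and 2 with a positive one. At the unadjusted threshold 0 were called in either direction. Over all 6793 genes 2572 slopes were negative and 4221 positive, and 4.64% were called negative and 7.79% positive. Adgrl1 and Adgrl3, latrophilin receptors of synapses, had -0.14 ± 0.11 and -0.23 ± 0.17, and Adgra2, a receptor of brain vessels, had 0.083 ± 0.057. The adhesion receptor list had a median of -0.046 over the 9 rats and 0.038 without rats 8 and 9. Without that pair 3 of its slopes were negative and 6 positive, against 3372 and 3421 over all genes.

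Genes that work with Mapre3 were also divided. Of 31 plus-end proteins 20 were measured, 2 called negative and 0 positive at an unadjusted limma p under 0.05, with a median slope of -0.0022, where 4.64% of all genes were called negative and 7.79% positive. They were Nav1, a microtubule-binding neuron navigator, at -0.90 ± 0.36, and Pafah1b1, which encodes the dynein regulator LIS1, at -0.38 ± 0.15 (SE, n = 9, limma adjusted p of 0.362 for both). Nav1 stood at 6.83 and 7.58 in rats 8 and 9, against 3.62 to 5.92 in the other 7, where its slope was -0.49. How many of all genes set this pair apart was not counted. Kif2c, a kinesin that disassembles microtubules, followed with 0.15 ± 0.066 at a dim mean of 3.67 log2 units. The cytoplasmic linkers Clip1 and Clip2 had -0.13 ± 0.087 and -0.087 ± 0.057 and did not reach that threshold. Without rats 8 and 9 the list held 2 negative calls and 1 positive, and Clip2 was among the negative ones with -0.18. Over all genes 5.77% were then called negative and 6.79% positive.

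Among 29 tubulins, microtubule-associated proteins and stathmins 23 were measured, 3 called negative and 0 positive, against 4.64% and 7.79% of all genes, with a median slope of -0.0059. Map1a, a microtubule-associated protein of mature neurons, had -0.34 ± 0.10, Mapt, which encodes tau, -0.45 ± 0.16 and Stmn2, a stathmin of growing axons, -0.18 ± 0.061 (SE, n = 9, limma adjusted p of 0.359 for each). Mapt stood at 13.0 and 12.9 in rats 8 and 9, against 11.3 to 11.9 in the other 7 rats, and its slope there was -0.20. Map1a stood at 11.1 and 10.9 in rats 8 and 9, against 9.63 to 10.5 in the other 7 rats, where its slope was also -0.20 and no longer called. Stmn2 kept both rats inside the range of the others and had a slope of -0.27 without them. The share of all genes that set rats 8 and 9 apart was not counted, so no contrast between these genes is drawn from it. Without the pair the list held 5 negative calls and 1 positive, where 5.77% of all genes were called negative and 6.79% positive.

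The list of postsynaptic scaffold and spine genes had the most negative median of the larger lists, -0.11 over 19 of 30 genes. It also holds the neurexins Nrxn2 and Nrxn3, which are mainly presynaptic, with slopes of -0.24 ± 0.11 and -0.094 ± 0.055 (SE, n = 9). The list had 15 negative slopes and 4 positive ones, while 2572 of the 6793 genes had a negative slope and 4221 a positive one. At an unadjusted limma p under 0.05, 4 were called negative, Nrxn2 among them, and 1 positive, against 4.64% and 7.79% of all genes. At the adjusted threshold 0 passed. Dlgap3, a scaffold that links PSD-95 to Shank proteins, had -0.33 ± 0.093, and Shank1 had -0.20 ± 0.076 at a dim 3.23 log2 units. Dlg1, which encodes SAP97, ran the other way with 0.16 ± 0.045 (SE, n = 9, limma adjusted p of 0.359), and its r was -0.860 with Adgrb1 and -0.890 with Mapre3. Without rats 8 and 9 Shank1 had -0.094 and Dlgap3 -0.26, neither called, and Dlg1 had 0.14. There were then 1 negative and 2 positive calls, against 5.77% and 6.79% of all genes, while 15 slopes were again negative and the median was -0.065.

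**Figure D4:**
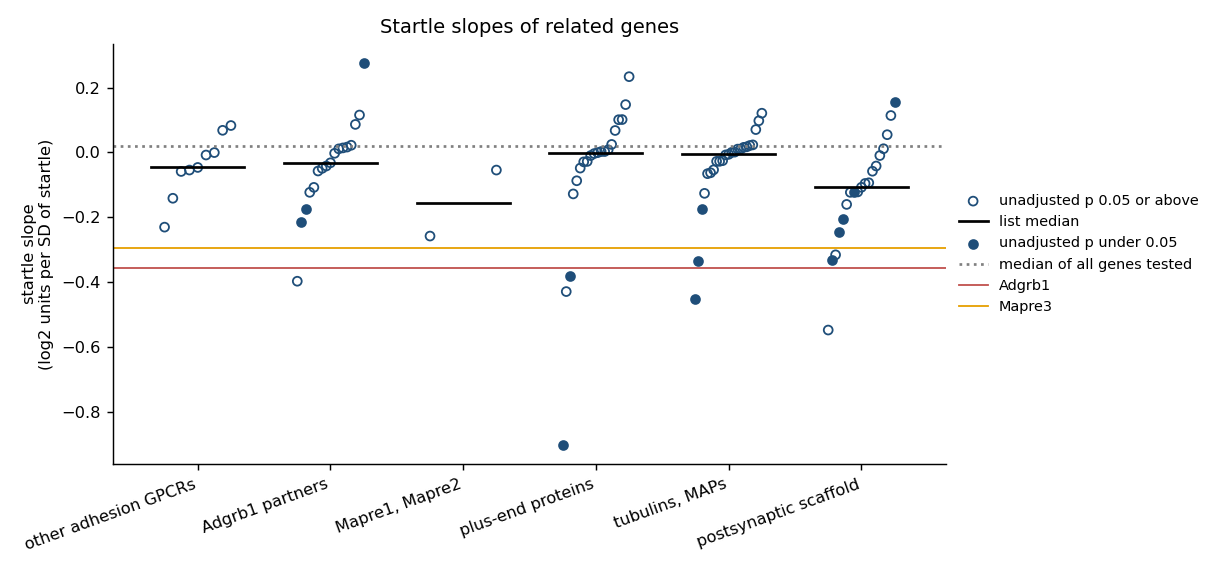
Limma slopes on startle, in log2 units per SD, for the measured genes of 6 lists related to Adgrb1 and Mapre3, which are themselves drawn as lines at -0.36 and -0.30. Filled circles have an unadjusted p under 0.05, black bars are list medians, the dotted line is the median of all genes, and most genes lie nearer 0 than either line.

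Adgrb1 and Mapre3 resembled each other, with r = 0.915 and rho = 0.933 over the 9 rats and r = 0.912 without rats 8 and 9. Both were chosen for the same relation with startle, and this r follows in part from that choice. With startle regressed out of both, r was 0.144 over the 9 rats and -0.072 over the 7. Rat 2 lay below the startle line for Adgrb1, at -0.21, and above it for Mapre3, at 0.073, whereas rat 7 lay above both lines, at 0.11 and 0.14.

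Of the 6792 other genes, 11 had r of 0.9 or more in size with Adgrb1 (0.162%) and 13 with Mapre3 (0.191%). The median size of r was 0.397 and 0.347. Leaving each other out, 10 genes reached this likeness with Adgrb1 and 12 with Mapre3. The 4 on both lists make up 40.0% of the first and 33.3% of the second. Adgrb1 and Mapre3 were chosen for the same relation with startle, and this overlap follows in part from that choice. All r in this comparison come from 9 shared arrays, and they serve to describe. The counts were higher with fewer rats: over the 7 without rats 8 and 9 they were 44 and 64. They ran from 15 to 49 and from 22 to 40 when 1 rat at a time was left out. A fixed r of 0.9 is passed more easily with fewer arrays, so these counts cannot be set directly against those over 9 rats.

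The genes most like Adgrb1 were Kctd17 (r = 0.929), Atp6v0a1 (0.922), Syn1 (0.918), Mapre3, Prrc2a (0.905), Nptxr (0.903), Dpf1 (0.901) and Ier5 (0.896). Atp6v0a1 is a subunit of the proton pump that loads vesicles, Syn1 coats synaptic vesicles, and Nptxr is a pentraxin receptor at excitatory synapses. The share of synaptic genes among all genes tested was not counted. Dpf1 belongs to a chromatin remodelling complex of neurons and Ier5 is an immediate early gene. Running against Adgrb1 were Tmx4 (r = -0.950), a thioredoxin-like protein of the endoplasmic reticulum, Tram1 (-0.936), which helps proteins enter it, and Gnb4 (-0.930), a G protein beta subunit at a mean of 3.22 log2 units, close to the filter on dim probe sets. Ghitm (-0.923), of the mitochondrial inner membrane, and Cdo1 (-0.895), which oxidises cysteine, came next.

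The genes most like Mapre3 were Syn1 (r = 0.962), Dpf1 (0.961), Atf5 (0.947), Nptxr (0.925), Actr8 (0.916), Adgrb1, Ctdnep1 (0.901) and Rbm5 (0.892). Syn1 reached 0.992 in the 7 rats without rats 8 and 9, where it ran from 10.6 to 11.2 log2 units. Actr8 is a subunit of a chromatin remodeller, Ctdnep1 a phosphatase of the nuclear envelope and Rbm5 a splicing regulator. Against Mapre3 ran Abraxas2 (r = -0.963), a scaffold of a deubiquitinating complex, Ghitm (-0.942), Paip1 (-0.935), which binds the poly(A)-binding protein, Erc1 (-0.918), an active zone scaffold, and Polr1e (-0.910), a subunit of RNA polymerase I at 3.40 log2 units. Syn1, Dpf1, Nptxr and Ghitm were on both lists, and all 4 also had r with startle of 0.886 or more in size. With startle regressed out, Mapre3 had r of 0.683 with Syn1, 0.780 with Dpf1, 0.572 with Nptxr and -0.621 with Ghitm. The 7 rats without rats 8 and 9 gave 0.945, 0.704, 0.458 and -0.589. For Adgrb1 the same residual values were 0.341, 0.350, 0.431 and -0.497 over the 9 rats and -0.218, 0.359, 0.126 and -0.390 over the 7.

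**Figure D5:**
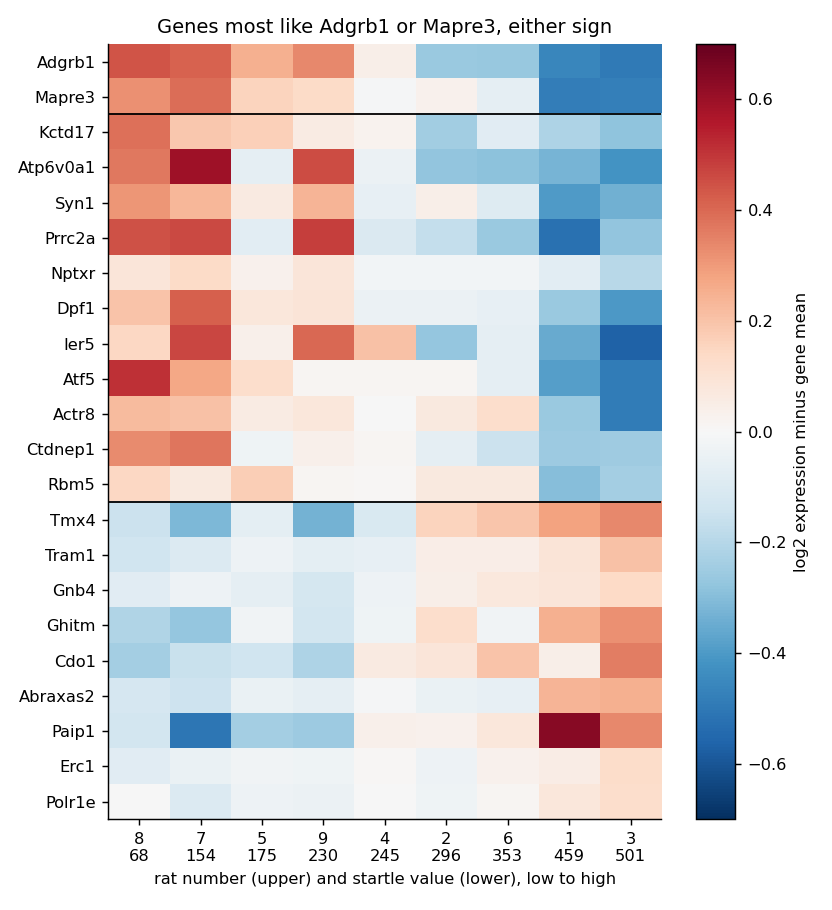
Log2 expression minus each gene's mean for Adgrb1, Mapre3 and the genes with the highest (middle block) and lowest (bottom block) correlation with either, in 9 rats ordered by startle value from low to high. The middle block passes from red in rat 8 to blue in rat 3 and the bottom block the reverse, with Atp6v0a1 highest in rat 7 and Paip1 highest in rat 1.

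Atf5 and Dhx36, other genes with steep startle slopes, differed in how closely they tracked the pair. Atf5, a transcription factor, had r = 0.947 with Mapre3 and 0.877 with Adgrb1. With startle regressed out these were 0.247 and -0.608 over the 9 rats, and 0.850 and -0.415 over the 7 without rats 8 and 9. Dhx36, a helicase of G-quadruplexes, ran against both, at -0.881 and -0.890, and came to -0.088 and -0.215 once startle was removed, or -0.540 and -0.372 over the 7 rats.

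With startle regressed out, a different set of genes came closest to each. For Adgrb1 the highest r belonged to Fosb (0.976), Dync1h1 (0.942), Rala (0.929), Egr2 (0.899) and Cx3cl1 (0.886). Fosb and Egr2 are activity-induced transcription factors, Dync1h1 is the heavy chain of the microtubule motor dynein, Rala is a small GTPase of vesicle delivery and Cx3cl1 is the chemokine by which neurons signal to microglia. Fosb was dim, from 3.47 log2 units in rat 2 to 4.28 in rat 9, which were also the rats farthest below and above the Adgrb1 line, and 3 rats shared a level of 3.82. Its residual r was 0.956 in the 7 rats without rats 8 and 9. Before startle was removed, Fosb had r = 0.320 and rho = -0.017 with Adgrb1 over the 9 rats. The lowest r belonged to Agpat5 (-0.932), Nr2f2 (-0.929) and Atp5mc3 (-0.925). In all, 3 genes lay at 0.9 or above and 6 at -0.9 or below.

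For Mapre3 no gene reached 0.9 in size once startle was regressed out. The closest were Foxk2 (0.895), Pnrc1 (0.883), Oat (0.875), Atxn7l3b (0.865) and Rnasek (0.851). Ptdss2 (-0.891), a phosphatidylserine synthase, Eif4b (-0.880), a translation initiation factor, and Jarid2 (-0.875), a partner of the Polycomb complex, ran against it. None of these genes was on the corresponding list for Adgrb1, though lists this short, drawn from 6792 genes, would seldom share a gene by chance. Pnrc1 and Rnasek had r of 0.0029 and -0.0926 with Mapre3 before startle was removed. Oat (-0.405), Ptdss2 (0.268) and Jarid2 (0.365) then had the opposite sign. Foxk2 (0.857), Atxn7l3b (0.803) and Eif4b (-0.670) had the same sign.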

How the data were processed

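The deposited log2 expression values, 1 per probe set and array, come from GCRMA in R, version 2.6.2, as the submitters' processing notes list; its settings are not given in the sources read. Of 15923 probe sets 57 controls were left out of the tests, and then the lowest 40% by mean (below 3.22), which left 9520, and 6793 genes with 1 probe set each, the brightest. Gene names came from the array platform's annotation, which gave 12783 probe sets 1 symbol, 312 several and 2771 none. The number of arrays limits precision.

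Slopes per SD of each behaviour were fitted with limma 3.58.1 in R 4.3.3 (two-sided, 7 residual degrees of freedom before moderation, Benjamini-Hochberg adjustment over all tested probe sets). Correlations across rats were tested over all 362880 pairings, two-sided, or 5040 for 7 rats (Python 3.11.15, numpy 2.4.6, pandas 2.3.3; figures with matplotlib 3.10.9). The fit was also run on simulated data. Co-varying genes are described by r without a p. For each of the 2 genes the text names the 8 highest and 5 lowest r, and the 5 highest and 3 lowest with startle regressed out, apart from symbols starting LOC, RGD, MGC or AABR. In the related lists up to 3 genes of lowest p are named. Further list genes with a known role beside the pair (Rac1, Elmo2, Dlg4, Mdm2, Clip1, Clip2) were named after their values were seen. The neurexins Nrxn2 and Nrxn3 were also named after that. The members and lists were chosen with earlier results of these data known. The other properties set against startle were the first principal component (-0.533) and the 3' minus 5' differences of the actin (-0.130) and hexokinase (0.193) controls. Within the 7 rats without rats 8 and 9 these r were -0.118, -0.698 and -0.489. There the actin difference had r = 0.733 with Adgrb1 and 0.578 with Mapre3, and the hexokinase difference 0.679 and 0.474.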

Additional observations from a re-analysis of the deposited data

Results flagged for a closer look

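In 8 of 88 sets of 9 values examined (9.09%), 1 rat lay far from the nearest other rat relative to the whole range, where chance gives about 1 in 20 such sets (Dixon's ratio of that gap to the range, above its 95% critical value). Rat 9 had the lowest hexokinase 3' minus 5' difference (ratio 0.496). Among named genes, Neurod2 was highest in rat 9 (0.837), Cx3cl1 highest in rat 9 (0.569), Rac1 lowest in rat 7 (0.600), Eif4b lowest in rat 7 (0.577), Pafah1b1 highest in rat 7 (0.504), Kif2c highest in rat 3 (0.520) and Stmn2 lowest in rat 3 (0.577). Neither Adgrb1 nor Mapre3 had such a rat.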

How the results depend on the processing

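No paired analysis was possible because the rats form 1 group and their numbers only name them. Every startle slope of both genes was negative under the 16 alternatives. Both genes were chosen for this slope in the same arrays, so the kept sign is no test of it. The startle slope of Adgrb1 was -0.41 once the 2 rats farthest from the median were dropped and -0.21 with the excitatory score as a covariate, and that of Mapre3 was -0.22 and -0.23. Leaving out 1 rat at a time gave -0.38 to -0.34 for Adgrb1 and -0.33 to -0.27 for Mapre3.

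For the other measures no alternative gave a limma adjusted p under 0.05 (lowest 0.374), and slopes near 0 changed sign. An unadjusted p under 0.05 came up in 3 of 150 fits, all for Adgrb1 on plus maze: -0.12 with the other 3 measures, -0.26 without rat 3 and -0.17 with array quality weights. Adgrb1 on locomotion became -0.056 with the first principal component, -0.070 with a term for rats 8 and 9, -0.081 without them, -0.022 with the hexokinase difference and -0.034 with the neuron score. Mapre3 on locomotion became 0.013 with ranks and 0.038 without the 2 farthest rats. Mapre3 on plus maze became 0.025 with the other 3 measures, 0.023 with the first principal component, 0.0077 with the term for rats 8 and 9, 0.016 with the GAPDH difference and 0.099 with the excitatory score. Adgrb1 on sugar feeding became -0.055 with the other 3 measures, -0.00047 without rats 8 and 9 and -0.19 without the 2 farthest rats, and Mapre3 became 0.0080 after quantile normalization. Leaving out 1 rat gave, for Adgrb1 and then Mapre3, -0.12 to 0.27 and -0.17 to 0.20 on locomotion, -0.26 to -0.14 and -0.10 to 0.0020 on plus maze, and 0.0036 to 0.14 and -0.050 to 0.043 on sugar feeding.

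The number of genes with a correlation of 0.9 or more in size was 11 for Adgrb1 and became 72 with rho, 44 without rats 8 and 9, 18 after quantile normalization and 15 to 49 with 1 rat left out. For Mapre3 it was 13 and became 30 with rho, 64 without rats 8 and 9 and 22 to 40 with 1 rat left out. A fixed r of 0.9 is passed more easily with fewer arrays, so the counts with rats left out are not directly comparable with the others. The cause of these changes was not tested. The hexokinase, GAPDH, excitatory and neuron covariates were chosen after seeing the data.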
